A study of Sus scrofa with 17 samples.

Results

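Right ventricular myocardium from 5 pigs given a single dose of umbilical cord blood mononuclear cells was compared with that from 5 pigs given vehicle. All 10 animals, and the 7 multidose animals sequenced with them, came from a model of right ventricular pressure overload, so the vehicle group carried the overload too and no unloaded heart entered the comparison. The 10 libraries were taken by their group labels from the 17 in the series, and each library was RNA from 1 animal, per the series text. All 15884 genes that passed the low-count filter, of 35670 in the table, were tested. The labels give no strain, age, cell dose or time of harvest for any library, and no sex, weight or batch, which the series text names as recorded.

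Mononuclear cells of cord blood are a mixture of lymphocytes, monocytes and rare progenitor cells that is studied as a cell therapy for the heart. They are thought to act on myocardium mainly through secreted factors, by way of vessels, immune cells and the matrix. A pressure-loaded right ventricle is known for a rise of natriuretic peptides, a shift of sarcomere genes toward their fetal forms and remodelling of its collagen. Circulating cortisol, catecholamines and the time of day also set the level of many cardiac genes, through the glucocorticoid receptor, immediate early genes and the circadian clock. Gene lists for these systems are described below by the number of members on each side of 0 and by their median fold change.

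Library totals ran from 22137165 to 53317361 counts in the single dose group and from 48311031 to 61144663 in the vehicle group. Mitochondrially encoded genes took 18.8% ± 1.91 (SD, n = 5) of the counts after a single dose and 15.8% ± 2.88 (SD, n = 5) after vehicle, a difference that an exact two-sided permutation test did not separate (p = 0.103, adjusted p = 0.179 over 5 library measures, smallest p allowed 0.00794). Single dose 1 had the lowest total, was the only library of the 10 whose name begins with M1, and lay at -81.8 on the main axis of variation among the 10 (25.9% of the variance by principal component analysis), while the other 9 lay between -15.4 and 30.9. Vehicle control 4 lay farthest out on the next axis, at -59.1. Many, but not all, results that rest on either library are given with and without it. Over all genes tested, single dose 1 was the highest of the 10 libraries in 18.8% and the lowest in 20.2%. These shares were 17.6% and 18.1% for vehicle control 3, 13.3% and 14.4% for vehicle control 4, and 11.7% and 10.9% for vehicle control 1. Y-linked transcripts were present in single doses 1, 4 and 5 and in vehicle controls 2, 3, 4 and 5. The tissue carried its defining genes in every library, with 7 cardiomyocyte markers summing to 53346 to 64012 CPM (counts scaled to a common library size) after a single dose and 39360 to 63285 CPM after vehicle. In bulk tissue, fewer cells of a type and less RNA per cell cannot be told apart.

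No gene passed an adjusted p of 0.05 by edgeR's quasi-likelihood test with Benjamini-Hochberg adjustment (0 of 15884, 0%), and limma-voom also called 0, whereas DESeq2 called 10. At an unadjusted p under 0.05 there were 836 genes (5.26% of those tested), of which 385 (2.42%) were higher and 451 (2.84%) lower after a single dose. Upper-quartile scaling turned that balance, with 476 higher and 354 lower, so that 57.3% of these genes were higher in place of 46.1%. In 139 genes (0.875%) every single dose library lay on 1 side of every vehicle library, above in 67 (0.422%) and below in 72 (0.453%). By chance alone, such a separation in either direction is expected in a share of 0.00794 of genes, the smallest p of the permutation test above. A p under 0.05 is expected by chance in a share of 0.05. Both shares seen were near these levels, so lack of overlap does not by itself mark a gene as changed. The count at p under 0.05 was 503 without single dose 1, 501 without vehicle control 4 and 278 without both. With 1 library left out, the share of all genes at that level, in either direction, ran from 3.13% without vehicle control 4 to 6.97% without vehicle control 5. It was 3.13%, 3.79%, 5.06%, 6.6% and 5.53% without single doses 1 to 5. It was 5.83%, 6.31%, 4.82%, 3.13% and 6.97% without vehicle controls 1 to 5. Counts within lists from these fits are to be read beside these shares. The median fold change of all genes was 0.00 on the log2 scale. The median SD per gene was 0.331 log2 units among the vehicle libraries and 0.283 in the single dose group. Each library's median absolute difference from the others of its group averaged 0.268 log2 units after vehicle and 0.235 after a single dose. The exact permutation test did not separate these (p = 0.333). On the main axis of variation the SD was larger in the single dose group, at 39.0 against 18.6. Since no gene passed, the genes below are given as levels and estimates, with fold changes as log2 of single dose over vehicle.

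The gene with the smallest p was TSPOAP1 (chr12:34578698-34606623 on Sscrofa11.1), which encodes a scaffold protein named for binding the mitochondrial translocator protein TSPO. Its level was 4.37, 1.53, 4.85, 4.87 and 3.07 CPM in single doses 1 to 5, against 0.568, 0.470, 1.16, 0.637 and 1.34 CPM in vehicle controls 1 to 5. Every single dose library lay above every vehicle library, with single dose 2 nearest to them. The fold change was 2.15 ± 0.36 (SE), a ratio of 4.45, with an edgeR adjusted p of 0.185. It passed the threshold by edgeR without single dose 2 (2.36, adjusted p = 0.0247) and with Y-linked expression as a covariate (2.29, adjusted p = 0.0367), and by DESeq2 (adjusted p = 1.77e-05). TSPO itself overlapped between the groups, at 36.8 to 67.5 CPM after a single dose and 19.1 to 63.3 CPM after vehicle. Of the 14 genes tested on the list of translocator protein and mitochondrial cholesterol transport, 12 had a positive fold change. TSPOAP1 was the only member at p under 0.05 (7.14%, beside 2.42% of all genes on the higher side).

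Other genes with small p on the higher side were of several kinds. IFT46 (chr9:45844636-45861918), a subunit of the intraflagellar transport complex that builds cilia, was at 29.3, 29.1, 24.0, 22.9 and 28.4 CPM after a single dose and at 21.3, 21.4, 18.7, 18.0 and 21.3 CPM after vehicle. The groups did not overlap although the difference was small, at 0.41 ± 0.09 (SE). GPD1, the glycerol-3-phosphate dehydrogenase that links glycolysis to lipid synthesis, was at 37.2, 54.9, 69.5, 56.9 and 43.9 CPM after a single dose and at 24.9, 23.7, 33.3, 8.70 and 21.0 CPM after vehicle. Its ratio was 2.35, with no overlap of the groups.

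CRYM, a thyroid hormone binding protein of the cytosol, differed widely among the single dose libraries, with 2.12, 2.50, 6.13, 17.7 and 0.331 CPM against 0.131 to 0.879 CPM after vehicle. Single dose 5 lay inside the vehicle range, and the fold change of 3.97 ± 1.01 (SE) was 2.91 to 4.57 when each library was left out in turn. SOSTDC1, a secreted antagonist of BMP and Wnt signals, was at 5.11, 1.67, 1.13, 0.469 and 1.14 CPM against 0.169 to 0.636 CPM, and its fold change of 2.27 was 1.51 without single dose 1. RASGEF1A, an exchange factor for small GTPases, was low in all libraries, at 0.552 to 2.85 CPM against 0.0750 to 0.248 CPM, and its groups did not overlap. DESeq2 called CRYM, SOSTDC1, RASGEF1A and IFT46 (adjusted p = 0.0446, 0.0468, 0.0101 and 0.0446), and edgeR called none of the 4 (adjusted p = 0.755 for each). Further genes among the 10 with the smallest p on this side were BAIAP3, GGCT, AS3MT and RHBDL1, with fold changes of 0.88, 0.71, 0.50 and 0.91. The groups did not overlap in BAIAP3, a regulator of vesicle fusion, GGCT, an enzyme of glutathione breakdown, and AS3MT, an arsenic methyltransferase, and they did in the rhomboid protease RHBDL1.

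On the lower side, NPR1 (chr4:95957220-95974253), the guanylyl cyclase receptor for atrial and B-type natriuretic peptides, had the smallest p. It was at 25.9, 20.0, 16.9, 17.3 and 22.1 CPM after a single dose and at 33.1, 20.8, 35.6, 44.3 and 39.8 CPM after vehicle. Vehicle control 2 lay within the single dose range and the other 4 above it. The fold change was -0.77 ± 0.17 (SE), with an adjusted p of 0.755 by edgeR and 0.0468 by DESeq2. SERPINB9, the intracellular inhibitor of granzyme B, was at 21.7, 28.3, 31.6, 25.1 and 26.4 CPM against 48.6, 33.5, 35.5, 41.3 and 38.0 CPM. All 5 single dose libraries lay below the vehicle libraries, and the fold change stayed between -0.63 and -0.49 when each library was left out in turn. PEAR1, an endothelial and platelet receptor, was at 30.1 to 38.8 CPM in the single dose group, a narrow range, against 36.6 to 76.0 CPM after vehicle.

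ADGRG1, an adhesion receptor, SLCO2A1, the prostaglandin transporter, and DLG5, a scaffold of cell junctions, were lower in every single dose library than in any vehicle library. ADGRG1 was at 36.5 to 60.3 CPM against 62.2 to 114.2 CPM, SLCO2A1 at 28.1 to 64.3 CPM against 69.3 to 134 CPM, and DLG5 at 9.28 to 16.9 CPM against 16.9 to 30.5 CPM. Their fold changes were -0.71, -0.94 and -0.78, and in none did leaving out a library bring the estimate nearer to 0 than -0.59.

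For 4 genes, the size of the difference turned on vehicle control 4. GALNT15, an enzyme that starts O-linked glycosylation, was at 2.13 to 3.59 CPM after a single dose and at 7.57, 4.07, 5.95, 74.1 and 10.6 CPM in vehicle controls 1 to 5. Its fold change of -2.83 was -1.28 without vehicle control 4, and the groups did not overlap either way. ACKR2, a decoy receptor for inflammatory chemokines, was at 6.76 to 14.8 CPM against 22.1, 16.1, 15.6, 98.6 and 18.2 CPM. USP43, a deubiquitinase, was at 0.496 to 1.08 CPM against 1.6, 1.41, 1.79, 7.91 and 2.96 CPM, and PAPPA, a protease of IGF-binding proteins, at 0.372 to 0.804 CPM against 1.58, 0.90, 1.09, 4.71 and 0.869 CPM. Without vehicle control 4, the fold change went from -1.59 to -0.67 for ACKR2, from -2.04 to -1.35 for USP43 and from -1.74 to -1.01 for PAPPA.

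Among genes with a symbol, a mean of at least 1 CPM over the 10 libraries and every single dose library above every vehicle library, the largest estimates beside TSPOAP1 were for MYL1, B3GALT2, GPD1 and CA11. MYL1, the fast skeletal and fetal myosin light chain, was at 13.8, 13.4, 8.87, 10.1 and 7.96 CPM after a single dose and at 2.29, 7.12, 2.23, 1.09 and 4.08 CPM after vehicle, a fold change of 1.69 ± 0.62 (SE). B3GALT2, a galactosyltransferase, was at 200, 85.6, 80.0, 72.3 and 56.6 CPM against 38.3, 37.8, 48.5, 8.38 and 56.6 CPM, so that single dose 5 and vehicle control 5 were level at the printed precision. The fold change of B3GALT2 was 1.38 with all libraries, 0.96 without single dose 1 and 1.13 without vehicle control 4. CA11, a carbonic anhydrase-related protein, was at 1.51 to 2.88 CPM against 0.206 to 1.46 CPM.

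**Figure D1:**
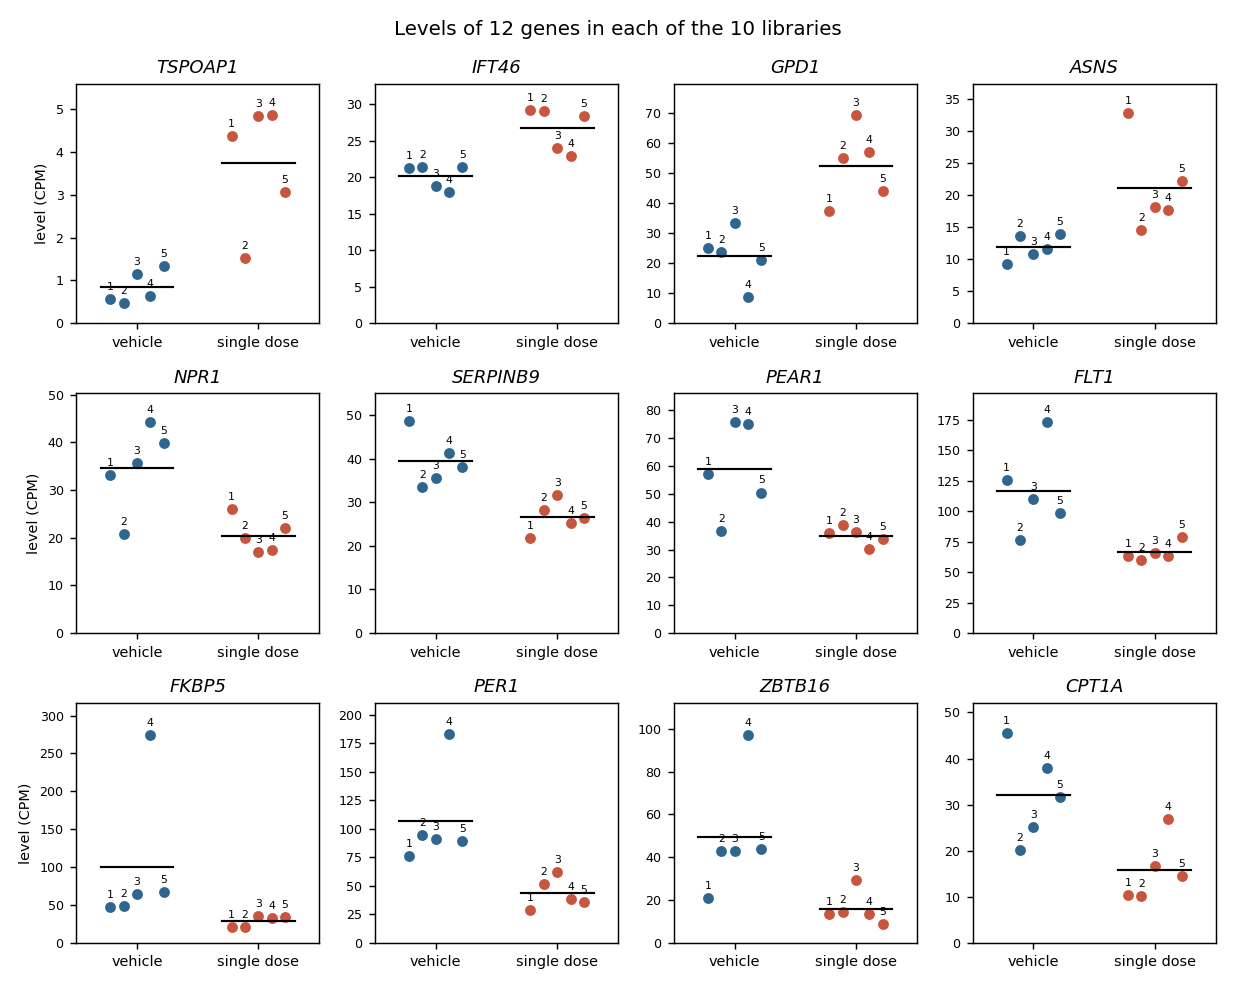
Levels of 12 genes in CPM (vertical axes, each starting at 0) in vehicle controls 1 to 5 (blue) and single doses 1 to 5 (red), with the replicate number above each point and the group mean as a bar. TSPOAP1, IFT46, GPD1 and ASNS stand higher after a single dose, and in FKBP5, PER1 and ZBTB16 vehicle control 4 stands far above the other vehicle libraries.

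Glucocorticoid receptor targets are genes that cortisol induces through a receptor, encoded by NR3C1, that binds DNA. Of 29 targets tested on a list of 34, 27 had a lower mean estimate after a single dose and 2 a higher one, and 14 (48.3%) were on the lower side at p under 0.05, beside 2.84% of all genes. The list's median was -0.62, beside 0.00 for all genes. FKBP5 (chr7:31441764-31550704), a co-chaperone that restrains the receptor and is itself induced by it, was at 21.1, 20.8, 35.2, 32.7 and 34.6 CPM after a single dose and at 47.6, 48.2, 64.9, 275 and 66.6 CPM after vehicle. No single dose library reached the lowest vehicle library. The fold change of FKBP5 was -1.80 ± 0.44 (SE) and -0.97 without vehicle control 4. ZBTB16, a zinc finger transcription factor, was at 13.5, 14.4, 29.3, 13.4 and 8.97 CPM against 21.1, 42.7, 43.1, 97.3 and 43.6 CPM, with single dose 3 above vehicle control 1. Its fold change went from -1.64 to -1.24 without vehicle control 4.

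Vehicle control 4 was the highest of the 10 libraries in 22 of the 29 targets, and in 2114 (13.3%) of all genes. Without it, 24 targets remained on the lower side, 5 of them (17.2%) at p under 0.05 beside 1.73% of all genes, and the median was -0.35. Without single dose 1 as well, the median was -0.34, with 25 targets on the lower side and 4 at p under 0.05 (13.8%, beside 1.01% of all genes). The mean log2 level of the list, set to 0 at the mean of the vehicle libraries, was -0.64, -0.74, -0.56, -0.38 and -0.60 in single doses 1 to 5. It was -0.16, -0.40, -0.26, 1.01 and -0.18 in vehicle controls 1 to 5, so that only single dose 4 and vehicle control 2 changed places in an otherwise separate order. NR3C1 itself did not stand apart, at 48.9 to 67.1 CPM against 37.9 to 65.9 CPM.

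The groups did not overlap in 3 of the 29 targets, PER1, FKBP5 and ARRDC2, each lower after a single dose, beside 0.453% of all genes on that side. ARRDC2, an arrestin-domain protein that was named after its values were seen, was at 17.7 to 24.1 CPM after a single dose and at 41.7, 25.2, 29.0, 117.95 and 31.7 CPM after vehicle. Its fold change went from -1.20 to -0.57 without vehicle control 4. PDK4, a kinase that inhibits pyruvate dehydrogenase, had the largest estimate on the list, with 17.1, 9.40, 39.4, 66.1 and 30.0 CPM against 98.8, 42.7, 66.9, 602 and 74.0 CPM. Single dose 4 reached into the vehicle range, and the fold change of PDK4 was -2.45 with all libraries and -1.11 without vehicle control 4. CEBPD, a transcription factor of acute stress, went from -1.52 to -0.66 when that library was left out. Of further members chosen after their values were seen, HIF3A went from -1.29 to -0.43 and KLF15 from -1.11 to -0.66 without it, while DUSP1, a phosphatase that is also an immediate early gene, went from -0.33 to 0.22. LCN2, the iron-binding lipocalin, was the other way, at 2.16, 0.579, 0.603, 3.02 and 1.01 CPM against 0.435 to 0.656 CPM after vehicle.

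**Figure D2:**
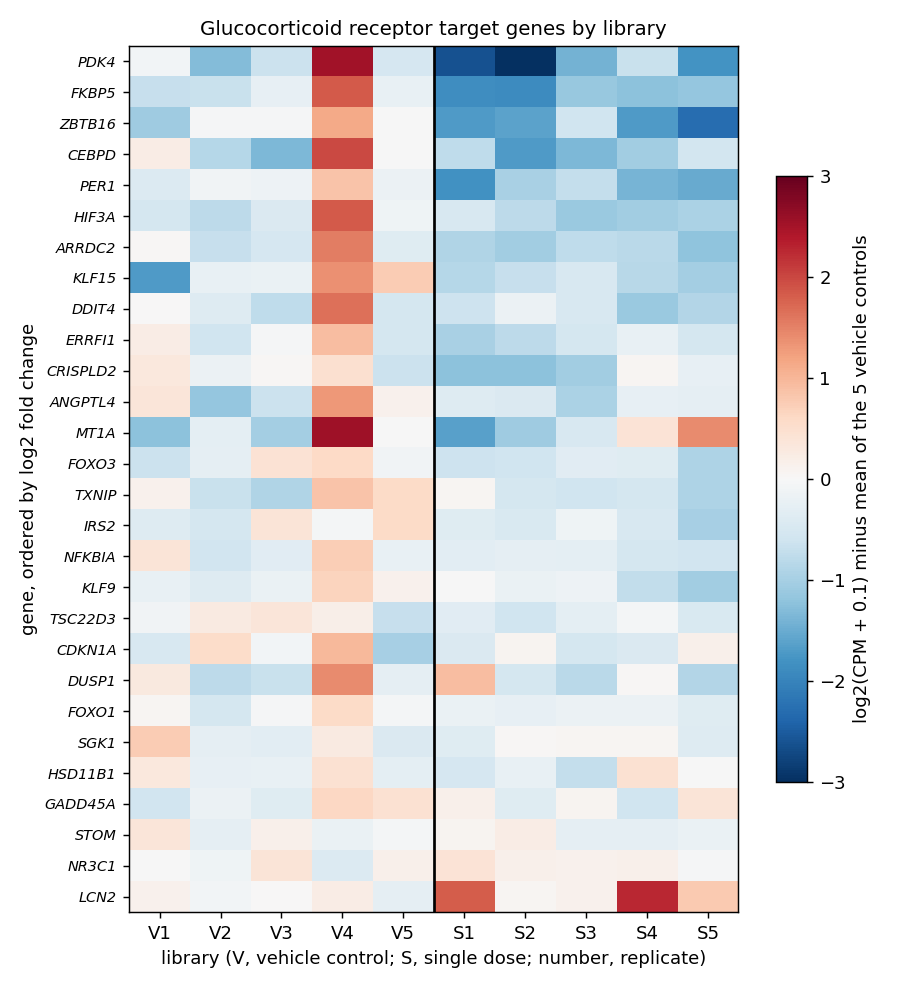
Level of 28 glucocorticoid receptor targets (rows, ordered by fold change) in each library (columns, V for vehicle control and S for single dose), as log2(CPM + 0.1) minus the mean of the vehicle libraries, with red above and blue below that mean. The column of vehicle control 4 is the highest in 21 of these 28 rows, and the single dose columns are mostly blue.

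Circadian clock genes, which keep daily time in each tissue, lay mostly lower after a single dose as well. Of 20 tested, 17 had a negative estimate, 4 (20.0%) were lower at p under 0.05, beside 2.84% of all genes, and the median was -0.20. That count was 2 without single dose 1 and 2 without vehicle control 3, and the median was -0.27 to -0.19 when each library was left out in turn. PER1 (chr12:53361863-53376723), a repressor of the clock that glucocorticoids also induce, was at 28.8, 51.4, 62.1, 38.7 and 35.5 CPM after a single dose and at 76.5, 94.4, 90.8, 183 and 89.4 CPM after vehicle. All single dose libraries lay below, and the fold change was -1.30 ± 0.32 (SE), or -1.02 without vehicle control 4. RORA, a nuclear receptor that activates BMAL1, was at 7.04, 6.80, 7.54, 6.77 and 5.57 CPM against 8.82, 8.59, 9.61, 12.4 and 7.84 CPM, again with no overlap. NR1D2, its repressing counterpart, was at 45.9 to 68.2 CPM against 62.2 to 102 CPM. Harvest times are not given per library, so the hour of harvest and the group cannot be told apart.

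Immediate early genes, transcription factors and kinases that stimuli induce within minutes, were mostly highest in vehicle control 4. Of 31 tested, 22 had a negative estimate and 5 (16.1%) were lower at p under 0.05, beside 2.84% of all genes. The median was -0.29, but vehicle control 4 was the highest library in 18 of the 31. Without it, 15 were positive and 16 negative, with 1 at p under 0.05 and a median of -0.05. Without single dose 1, 28 were negative, with 5 at p under 0.05 and a median of -0.42. Without both libraries, 26 were negative, with 0 at that level and a median of -0.20. Without single dose 2 the median was -0.19, and without vehicle control 2 or 3 the count at p under 0.05 was 8. Those 2 fits had 6.31% and 4.82% of all genes at that level in either direction. FOSL2, an AP-1 subunit, was at 6.17 to 11.4 CPM against 10.4 to 26.8 CPM, and SIK1, a salt-inducible kinase, at 10.003 to 23.0 CPM against 14.9 to 104 CPM.

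Of 12 genes tested of the natriuretic peptide system, 8 were negative and 4 positive, with NPR1 lower and MME higher at p under 0.05 and FURIN the only member whose groups did not overlap. Of all genes, 2.84% were lower and 2.42% higher at that level, and the groups did not overlap in 0.875%. The peptides NPPA and NPPB varied widely, NPPA at 102, 2054, 1096, 588 and 1190 CPM after a single dose and at 976, 4795, 1687, 3648 and 816 CPM after vehicle. NPPB was at 11.6, 898, 1266, 1385 and 1507 CPM against 1736, 2847, 981, 4800 and 595 CPM. Single dose 1 was the lowest library for both, and their fold changes of -1.24 and -1.11 had 95% intervals of -3.37 to 0.88 and -3.24 to 1.02. Of the receptors and enzymes, the clearance receptor NPR3 was at 30.1 to 78.8 CPM against 35.1 to 88.3 CPM. FURIN, a protease that activates precursor proteins, was below the vehicle group in all 5 single dose libraries, at 48.8 to 57.6 CPM against 58.1 to 93.6 CPM, with vehicle control 3 highest. MME, the neprilysin that degrades the peptides, was at 6.51 to 29.1 CPM against 5.72 to 10.2 CPM. Atrial markers summed to 243 to 2173 CPM after a single dose and 917 to 4967 CPM after vehicle, with single dose 1 lowest. NPPA is itself 1 of these markers, at 4795 of the 4967 CPM in vehicle control 2, so the sum is not separate from its level. The part of atrial tissue in the peptide levels was not tested.

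Genes of cardiac load and the fetal program had a negative estimate in 15 of 18, none of them at p under 0.05, and a median of -0.20. Single dose 1 was the lowest library in 13 of the 18, and without it the median was -0.04. Without single dose 2, vehicle control 1 or vehicle control 5 the median was -0.35, -0.32 or -0.40. XIRP1, an actin-binding protein of the intercalated disc, was at 246 to 569 CPM against 450 to 1034 CPM. MYOT, a Z-disc protein, was at 233 to 568 CPM against 372 to 1151 CPM. MYL4, the atrial and fetal light chain, ran from 5.20 to 27.7 CPM and from 9.69 to 70.1 CPM. The sarcomere list leaned the other way, with 15 of 21 positive and a median of 0.16. In it, 1 member (4.76%) was higher at p under 0.05, beside 2.42% of all genes. The median was 0.053 without vehicle control 1, 0.098 without single dose 2 and 0.089 without single dose 3, and no member was at that level on the positive side without single dose 1, 2 or 3 or vehicle control 3 or 4. The member with all libraries, MYL3, the ventricular essential light chain, was at 6296, 5850, 5640, 3777 and 5232 CPM against 3871, 4768, 3590, 3628 and 4351 CPM, with single dose 4 alone inside the vehicle range. ACTC1, cardiac actin, was at 1397 to 4065 CPM against 254 to 2515 CPM, with vehicle control 4 lowest.

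Endothelial genes had lower estimates after a single dose in 21 of 24, of which 6 (25%) were at p under 0.05, beside 2.84% of all genes, and the median was -0.28. The median was -0.27 without single dose 1, -0.23 without vehicle control 4 and -0.25 without both, and 21, 22 and 21 members were negative. Without vehicle control 2, 23 were negative and 10 were lower at p under 0.05, in a fit with 6.31% of all genes at that level in either direction. Without vehicle control 1, 16 were negative, with 4 at that level and a median of -0.20. FLT1 (chr11:5620698-5797095), a VEGF receptor that binds the ligand with little signalling, was at 63.0, 59.9, 66.0, 63.3 and 78.9 CPM after a single dose and at 126, 76.7, 110, 173 and 98.7 CPM after vehicle. The single dose libraries were close together, with only vehicle control 2 inside their range. Its fold change was -0.82 ± 0.21 (SE), and -0.63 without vehicle control 4. BTNL9, a butyrophilin of capillary endothelium, was at 25.3, 25.5, 41.3, 24.0 and 25.1 CPM against 57.3, 32.2, 35.5, 77.8 and 58.4 CPM. Both PLVAP, which forms the diaphragms of fenestrae, and NOS3, the endothelial nitric oxide synthase, were named after their values were seen. PLVAP was at 72.2 to 137 CPM against 123 to 298 CPM, and NOS3 at 17.7 to 24.9 CPM against 23.4 to 40.1 CPM. The row that the table calls VWF, also on this list, carries the name ANO2 in the reference and is not described by itself. It is counted in the totals of this list.

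Of general endothelial markers, only PECAM1 and a sum are described here, and both stood apart less clearly than these genes. PECAM1, an adhesion molecule of all endothelium, was at 221 to 281 CPM against 191 to 324 CPM, a fold change of -0.11 with a 95% interval of -0.46 to 0.25. Summed over 10 markers, FLT1 and the doubtful row called VWF among them, the endothelial level was 1055 to 1168 CPM after a single dose and 989 to 1654 CPM after vehicle. It was highest in vehicle control 1, which was also the highest library in 13 of the 24 listed genes. Angiogenic ligands and receptors were negative in 22 of 29, with a median of -0.24. Of these genes, 5 (17.2%) were lower at p under 0.05, beside 2.84% of all genes. This list shares members with the endothelial list, FLT1 among them. Without vehicle control 1 the median was -0.16. Without vehicle control 2 the count was 9, in a fit with 6.31% of all genes at p under 0.05 in either direction. NOTCH4, an endothelial Notch receptor, was at 39.8 to 73.4 CPM against 61.8 to 127 CPM, and NRP1, a VEGF co-receptor, at 119 to 154 CPM against 143 to 215 CPM. ANGPT2, the antagonist ligand of the TEK receptor, was named after its values were seen and was at 8.51 to 12.6 CPM against 10.4 to 21.97 CPM. VEGFA, the main angiogenic ligand, was at 86.9 to 170 CPM against 112 to 207 CPM, a fold change of -0.15 with a 95% interval of -0.65 to 0.34.

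**Figure D3:**
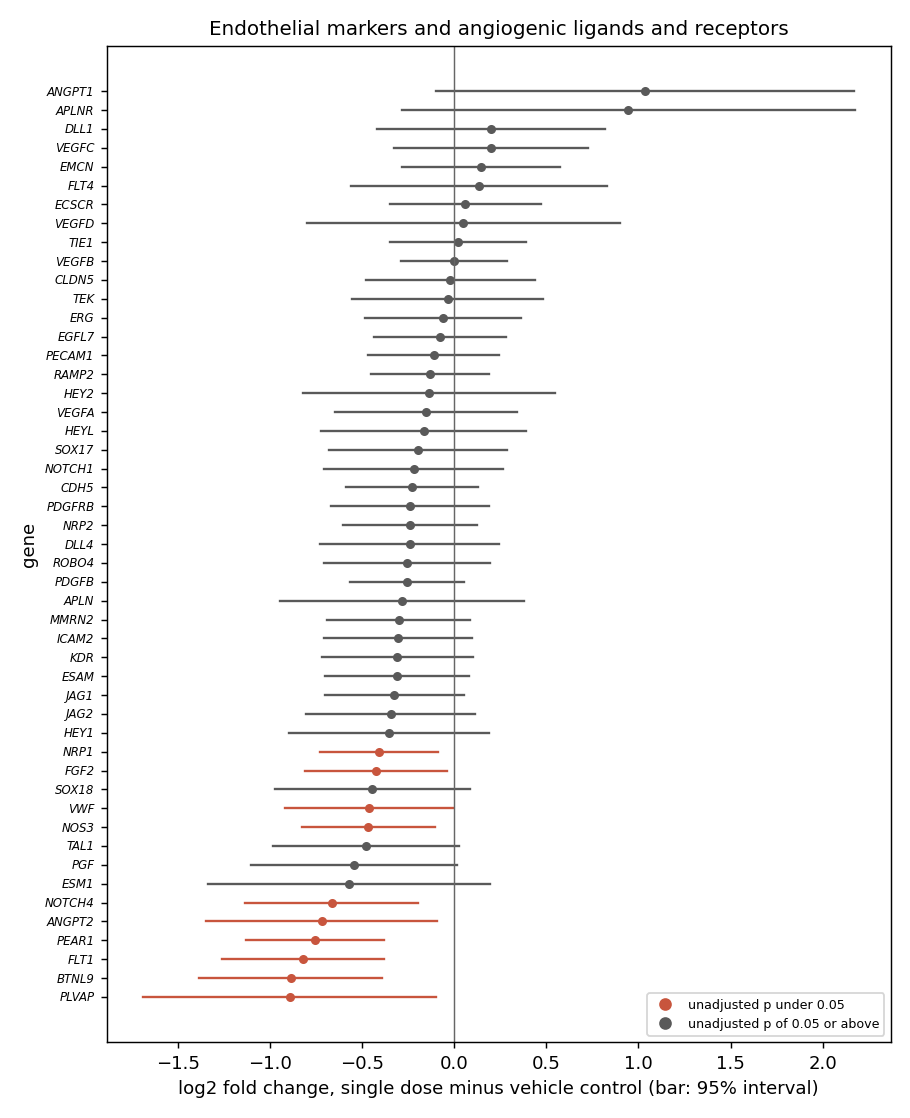
Log2 fold change of single dose over vehicle (points) with 95% intervals (bars) for the endothelial and angiogenic genes tested, with genes at an unadjusted p under 0.05 in red. Most estimates lie left of 0, those of FLT1, BTNL9 and PEAR1 with intervals clear of it, while the interval of PECAM1 spans 0.

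Genes of TGF-beta signalling were negative in 15 of 19, 4 (21.1%) of them at p under 0.05, beside 2.84% of all genes, with a median of -0.27. SMAD7 (chr1:98512800-98543924), the inhibitory SMAD that TGF-beta induces as a feedback, was at 5.75, 6.34, 11.2, 13.5 and 9.18 CPM after a single dose and at 20.5, 14.0, 15.2, 18.2 and 13.6 CPM after vehicle, with no overlap. Its fold change was -0.82 ± 0.22 (SE). INHBB, an activin subunit, was at 1.38 to 2.87 CPM against 1.55 to 6.45 CPM. The count at p under 0.05 was 1 without single dose 1 and 1 without vehicle control 4, and 2 without single dose 2, 3 or 5 or vehicle control 1. The median was -0.23 without vehicle control 4 and -0.15 without vehicle control 3.

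Of 27 genes of BMP and Wnt signalling, 18 were negative, 4 (14.8%) of them at p under 0.05 beside 2.84% of all genes. SOSTDC1 was the 1 positive member at that level (3.70%, beside 2.42% of all genes). The 4 became 2 without single dose 1, single dose 2 or vehicle control 1, and 7 without single dose 4. The fit without single dose 4 had 6.6% of all genes at p under 0.05 in either direction. BMP2, a ligand of the pathway, was at 0.782, 0.806, 0.754, 1.51 and 1.27 CPM against 1.88, 1.86, 2.14, 1.99 and 1.63 CPM. Its groups did not overlap, and its fold change was -0.88 ± 0.25 (SE), with a range of -1.07 to -0.79 when each library was left out in turn. BMPR2, the type II receptor for BMP ligands, was at 26.6 to 44.3 CPM against 37.0 to 82.4 CPM. Collagens did not stand apart from all genes, with 10 of 18 positive, none at p under 0.05 in either direction and a median of 0.02. COL1A1 was at 953 to 1962 CPM against 864 to 1912 CPM, a fold change of 0.05 with a 95% interval of -0.49 to 0.59. COL3A1 was at 1439 to 4100 CPM against 1271 to 2484 CPM, with single dose 1 highest. The basement membrane chains COL4A1 and COL4A2 were highest in vehicle control 3, at 2552 and 1677 CPM, and the largest value in any other of the 10 libraries was 1459 CPM for COL4A1 and 892 CPM for COL4A2. COL5A1 was at 229 to 433 CPM against 316 to 518 CPM.

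Markers of T and natural killer cells had negative estimates in 23 of 27, with a median of -0.28. Of these, 2 (7.41%) were lower at p under 0.05, beside 2.84% of all genes. Vehicle control 1 was the highest of the 10 libraries in 17 of the 27, and without it the median was -0.025, with 15 negative. The median was -0.13 without single dose 1 and -0.44 without vehicle control 4, the libraries with the lowest mean level of these markers in their groups. CD8A, the coreceptor of cytotoxic T cells, was at 1.93 to 4.71 CPM against 1.93 to 11.4 CPM, and the granzyme GZMK was near 0 in both groups, at 0.248 to 0.690 CPM against 0.164 to 0.281 CPM. The summed level of 11 markers was 22.9 to 49.9 CPM after a single dose and 21.2 to 65.9 CPM after vehicle, so the ranges overlapped throughout.

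Of 22 macrophage markers, 12 were positive and 10 negative. MARCO, a scavenger receptor, was at 0.138, 0.227, 0.301, 0.143 and 0.239 CPM after a single dose and at 15.7, 0.164, 1.32, 3.09 and 1.32 CPM after vehicle. Its estimate of -4.32 was -2.79 at the weakest when libraries were left out in turn, and vehicle control 2 lay within the single dose range. CD163, a haemoglobin scavenger receptor that glucocorticoids also induce, was at 14.1 to 33.5 CPM against 41.6, 23.8, 21.1, 207 and 40.2 CPM, and its fold change went from -1.43 to -0.36 without vehicle control 4. CCR2, the receptor that draws monocytes into tissue, was the other way, at 10.6, 9.44, 8.52, 6.75 and 8.29 CPM against 8.24, 5.77, 4.43, 4.20 and 5.32 CPM. Macrophage markers summed to 305 to 515 CPM after a single dose and to 283 to 688 CPM after vehicle.

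Of mast cell and myeloid markers, KIT, the stem cell factor receptor of mast and progenitor cells, was at 21.7, 33.5, 24.2, 26.5 and 28.8 CPM after a single dose and at 71.4, 27.3, 51.0, 81.5 and 57.8 CPM after vehicle. Vehicle control 2 alone lay within the single dose range, and the fold change was -1.10 ± 0.31 (SE). MS4A2, a chain of the IgE receptor on mast cells, did not follow KIT, at 5.75 to 10.8 CPM against 3.81 to 8.38 CPM. LYZ, the lysozyme of myeloid cells, was at 17.3, 4.79, 4.97, 5.71 and 23.7 CPM against 10.1, 3.86, 1.46, 3.71 and 2.30 CPM. Of 11 inhibitors of granzymes and cytotoxic cells, 3 (27.3%) were lower at p under 0.05, namely SERPINB9, HAVCR2 and IDO1, beside 2.84% of all genes. The count was 1 without single dose 1, 3 or 4 or vehicle control 4. HAVCR2, the T cell checkpoint TIM-3, had a fold change of -1.27 that was -0.19 without vehicle control 4. IDO1, which degrades tryptophan, had 0 counts in single dose 1, which allows up to 0.138 CPM (3 counts, counting error only), and 0.408 to 1.07 CPM in the other single dose libraries, against 0.0818 to 6.21 CPM after vehicle.

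Type I interferon response genes depended on single dose 1. With all libraries, 17 of 33 were positive and 16 negative, with none at p under 0.05 and a median of 0.00. Single dose 1 was the highest library in 21 of the 33, and without it all 33 were negative, with a median of -0.45 and still none at p under 0.05. MX1, an antiviral GTPase named after its values were seen, was at 88.8 CPM in single dose 1, at 12.5 to 21.8 CPM in the other single dose libraries and at 14.4 to 44.5 CPM after vehicle. The chemokines CXCL9 and CXCL10 overlapped, at 4.14 to 32.5 CPM against 9.96 to 67.0 CPM and at 16.0 to 31.8 CPM against 21.4 to 227 CPM. ISG20, an antiviral exonuclease, was at 0.496 to 0.897 CPM against 0.552 to 2.06 CPM.

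Antigen presentation genes were negative in 13 of 18, none at p under 0.05, with a median of -0.17, and vehicle control 1 was the highest library in 16 of them. Without that library the median was 0.023, with 9 negative. The median was -0.22 without single dose 1, -0.24 without vehicle control 4 and -0.27 without both, with 17, 16 and 18 negative. TAPBP, the chaperone that loads peptide onto class I molecules, was lower in every single dose library, at 37.4 to 45.5 CPM against 46.0 to 71.8 CPM, and was named for that reason after its values were seen. The costimulatory ligands CD80 and CD86 and the peptide transporter subunit TAP2 had fold changes of -0.46, -0.32 and -0.41, each with overlap.

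Mitochondrial and ribosomal genes had small positive estimates as whole groups, without any member at p under 0.05 with all libraries. Without single dose 4, 13 respiratory subunits and 2 mitochondrially encoded genes were at that level, and without vehicle control 5, 3 mitochondrially encoded genes. Those fits had 6.6% and 6.97% of all genes at that level in either direction. All 50 nuclear subunits of the respiratory chain were positive (50.4% of all genes were), with fold changes of 0.03 to 0.50 and a median of 0.27. All 13 mitochondrially encoded genes were positive too, with a median of 0.31, and so were 43 of 45 cytoplasmic ribosomal proteins, with a median of 0.25. The members of such a list are not independent of each other, so these counts carry no test. Single dose 1 was the highest library in 41 of the 50 respiratory subunits and 41 of the 45 ribosomal proteins. Vehicle control 3 was the lowest in 37 and in all 45. Without single dose 1 the medians were 0.17 for respiratory subunits and 0.09 for ribosomal proteins, and without vehicle control 3 that of ribosomal proteins was 0.086.

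Levels of single members show the overlap. ATP5PO, a subunit of the ATP synthase stalk, was at 1071, 928, 719, 539 and 741 CPM after a single dose and at 540, 662, 380, 702 and 791 CPM after vehicle. ND1, a complex I subunit encoded by mitochondrial DNA, was at 1325 to 2513 CPM against 983 to 2136 CPM. RPL22 was at 394 CPM in single dose 1 and 65.4 CPM in vehicle control 3, and between 162 and 209 CPM in the other 8 libraries. Other members had fold changes of 0.34 (NDUFA9), 0.37 (ATP5PF), 0.36 (ND2), 0.48 (ND3), 0.30 (RPS9) and 0.41 (RPS27A). Among the libraries whose names end in _R, which are single doses 2 to 5 and vehicle controls 1, 2, 4 and 5, the estimates of RPL22, RPS9 and RPS27A were -0.033, -0.032 and -0.071.

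**Figure D4:**
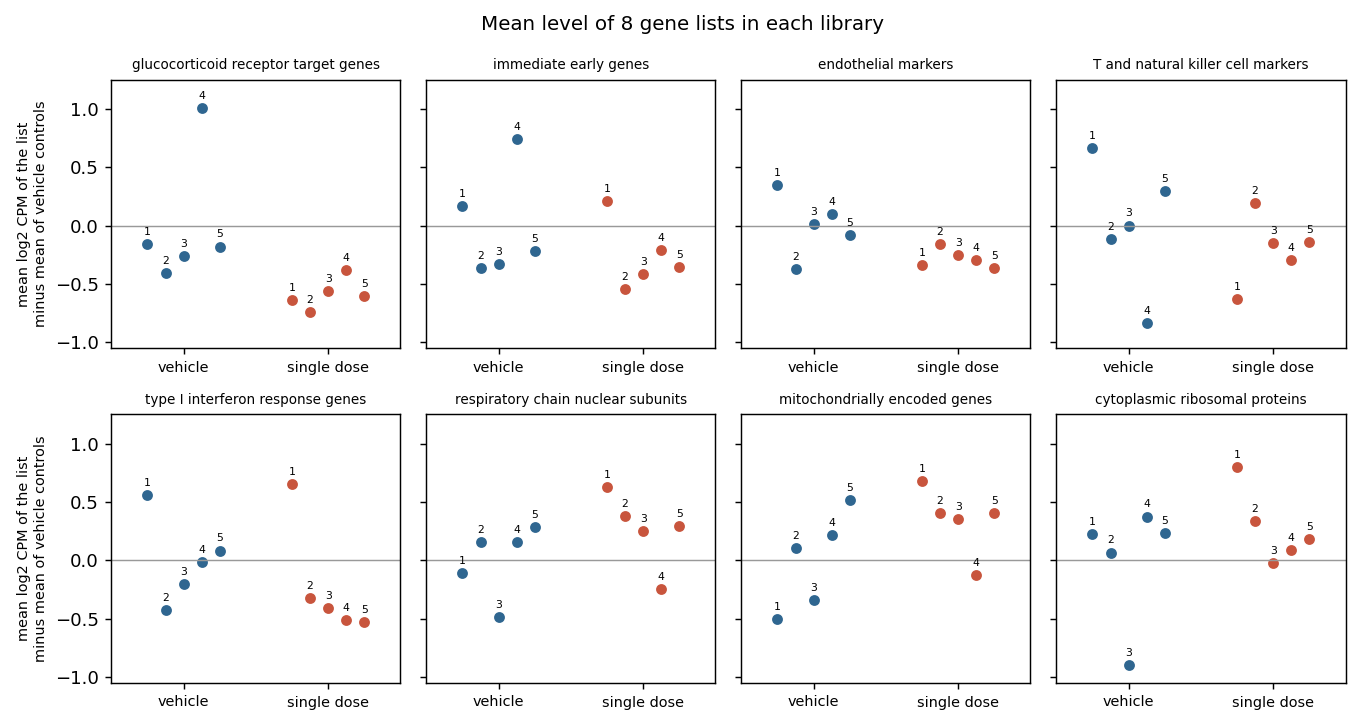
Mean log2 CPM of 8 gene lists in each library, minus the mean of the vehicle libraries (vertical axis), for vehicle controls (blue) and single doses (red), with replicate numbers. Vehicle control 4 stands at 1.01 for glucocorticoid targets, single dose 1 is highest and vehicle control 3 lowest for ribosomal proteins, and single dose 1 stands apart from the other single doses for interferon genes.

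Fuel use genes were mixed. Of 29 genes of fatty acid uptake and oxidation, 13 were positive and 16 negative. CPT1A, which admits long-chain fatty acids to the mitochondrion, was at 10.4, 10.2, 16.6, 27.0 and 14.6 CPM after a single dose and at 45.5, 20.1, 25.2, 37.9 and 31.6 CPM after vehicle. Single dose 4 alone reached into the vehicle range, and the fold change was -1.02 ± 0.28 (SE), with a range of -1.31 to -0.87 when each library was left out in turn. ETFB, an electron carrier of beta-oxidation, was at 202 to 261 CPM against 132 to 227 CPM. Of 35 genes of glycolysis, pyruvate oxidation and the TCA cycle, 23 were positive. At p under 0.05, 2 (5.71%) were higher, beside 2.42% of all genes (none without single dose 1 and 6 without single dose 4). Those fits had 3.13% and 6.6% of all genes at that level in either direction. LDHB, the lactate dehydrogenase subunit of oxidative muscle, was at 470, 41.2, 43.3, 37.6 and 212 CPM against 17, 40.4, 27.4, 26.8 and 32.4 CPM. Single doses 1 and 5 carried most of that difference, and without single dose 1 the fold change went from 2.48 to 1.53. PFKM, the muscle phosphofructokinase, was at 376 to 824 CPM against 281 to 587 CPM, and SLC2A1, a glucose transporter, at 25.7 to 39.3 CPM against 30.4 to 59.7 CPM.

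Ciliary transport genes were positive in 19 of 24, with a median of 0.17. IFT46 was the only member at p under 0.05 or without overlap (4.17%, beside 2.42% and 0.422% of all genes on the higher side). The median was 0.094 without single dose 1, which was the highest library in 9 of the 24 (37.5%, beside 18.8% of all genes). IFT74 and IFT81, partners that carry tubulin in the same complex as IFT46, were each at 0.35, with overlap. On the translocator list, VDAC3, a channel of the outer mitochondrial membrane, was at 214 to 353 CPM against 205 to 321 CPM.

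Heat shock chaperones were negative in 13 of 16, with a median of -0.20 that was -0.07 without vehicle control 4 and -0.32 without vehicle control 1. HSPH1, a nucleotide exchange factor for HSP70, was at 20.8, 21.3, 30.4, 32.4 and 37.8 CPM against 27.5, 38.0, 39.4, 88.4 and 72.6 CPM. Its fold change went from -0.90 to -0.63 without vehicle control 4. The co-chaperones DNAJA1 and BAG3 had fold changes of -0.43 and -0.42. The integrated stress response was split, with 10 positive and 10 negative genes. ASNS, the asparagine synthetase induced by ATF4, was at 32.9, 14.6, 18.1, 17.6 and 22.2 CPM, above the 9.27, 13.6, 10.8, 11.6 and 14.0 CPM of every vehicle library, a fold change of 0.83 ± 0.25 (SE). Without single dose 1 the fold change of ASNS was 0.61. PSPH, the last enzyme of serine synthesis, was at 0.775 to 6.17 CPM against 1.01 to 1.88 CPM, while GDF15, a secreted stress hormone, was under 1 CPM throughout and had a fold change of -0.76.

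Cell death and survival genes were negative in 17 of 22, 2 (9.09%) of them at p under 0.05, beside 2.84% of all genes, with a median of -0.18. Without vehicle control 4, the highest library in 9 of the 22, the median was -0.093 and none was at that level. MCL1, an anti-apoptotic BCL2 relative, was at 235, 240, 242, 247 and 237 CPM after a single dose and at 290, 261, 288, 407 and 288 CPM after vehicle. The single dose libraries differed by little among themselves (SD 4.71 CPM) and all lay below the vehicle libraries, and the fold change was -0.35, or -0.23 without vehicle control 4. BCL2L1, which encodes BCL-XL, was at 40.0 to 68.8 CPM against 55.3 to 131 CPM. XIAP, a caspase inhibitor, was at 45.2 to 93.3 CPM against 67.7 to 109 CPM.

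**Figure D5:**
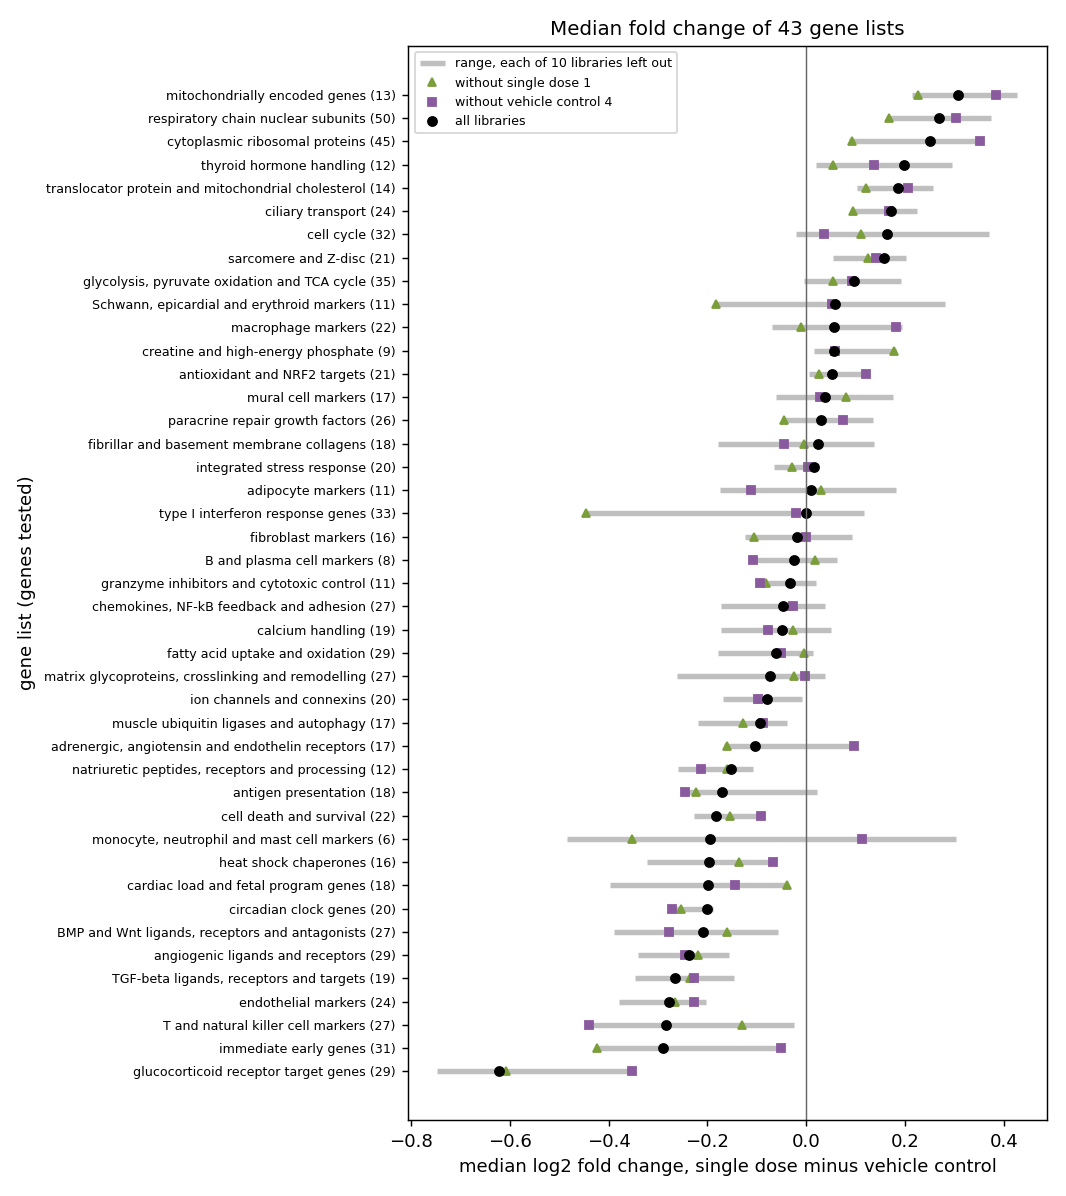
Median log2 fold change of 43 gene lists with all libraries (black points), without single dose 1 (green triangles) and without vehicle control 4 (purple squares), with the range over 10 fits that each leave out 1 library (grey bars) and the number of genes tested in brackets. Glucocorticoid receptor targets lie lowest at -0.62, and the interferon list moves from 0.00 to -0.45 without single dose 1.

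The 7 multidose animals were fitted in the same model, which gave the test of multidose against single dose. No gene of 15884 passed it by edgeR at an adjusted p of 0.05 (0%). Since the estimates share the single dose libraries, levels are given side by side. TSPOAP1 was at 2.24 to 5.25 CPM after repeated doses, with a median of 3.20 CPM, a range that overlapped the single dose libraries and lay above the vehicle libraries. IFT46 was at 21.7 to 24.4 CPM, between the single dose mean of 26.7 CPM and the vehicle mean of 20.2 CPM. NPR1 was at 22.7 to 31.4 CPM, with single dose and vehicle means of 20.4 and 34.7 CPM. FKBP5 was at 23.3 to 67.8 CPM with a median of 36.9 CPM, and the single dose and vehicle means were 28.9 and 100.4 CPM. NR1D2 had the smallest p for multidose against single dose among the 112 genes named, at 71.1 to 120 CPM after repeated doses against 45.9 to 68.2 CPM after a single dose.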

How the data were processed

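The deposited table holds raw counts per Ensembl gene, whole numbers that the authors made from Illumina NextSeq reads. The submitters' processing notes list Trimmomatic 0.33 and FastQC 0.11.7, HISAT2 2.1.0 and the build Sscrofa11.1, Subread 1.6.2, and SAMtools 1.7, without saying which step each served. Neither a strand setting nor an annotation release is stated there, so reads of overlapping or antisense genes cannot be told apart. Total counts per library are in the report.

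The tests used edgeR 4.0.16 in R 4.3.3. Low-count genes were removed by filterByExpr with the groups, TMM factors scaled the libraries, and a robust quasi-likelihood model of group alone was fitted over the 17 libraries. Tests were two-sided with Benjamini-Hochberg adjustment over all 15884 genes and a threshold of 0.05. CPM values use TMM-scaled totals, and list levels are means of log2 CPM with a prior count of 2. The fit assumed that sex, weight and batch do not matter, since they are not given per library. Same-numbered libraries of the groups did not deviate together, so numbers were not taken as pairs. Alternatives were RLE and upper-quartile scaling, other filters, covariates from library names or Y-linked counts, subsets of libraries, thinning, each library left out, DESeq2 1.42.0 and limma-voom 3.58.1. The edgeR fit was tested on simulated counts.

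The named genes were the 10 per direction with the smallest p and a mean of at least 1 CPM, every gene called by edgeR, DESeq2 or limma-voom, the 5 per direction with the largest fold change among genes whose groups did not overlap, up to 3 members with the smallest p in each list described, and NPPA, NPPB, NPR1, NPR3, COL1A1, COL3A1, VEGFA, PECAM1, NR3C1, TSPO and TSPOAP1. A few genes that this rule names are not reported here. A further 10 genes were chosen after their values were seen. The comparison and the gene lists were chosen with earlier results of these data known, so no list is independent support. Some genes, such as FLT1, PER1 and PDK4, are on more than 1 list, so the lists are not separate from each other. Symbols come from the table, and 119 genes without a symbol were named from RefSeq. Coordinates were taken from RefSeq (Sscrofa11.1) by gene symbol.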

Additional observations from a re-analysis of the deposited data

Results flagged for a closer look

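In a group of 5 libraries, the highest or lowest library was taken to stand apart when its gap to the nearest other exceeded 0.71 of the range. That is Dixon's 95% value, which chance exceeds in about 1 of 20 groups. Gene levels were judged as log2 CPM, though CPM are printed. A library far out in CPM may thus be missing here, as vehicle control 4 is for GALNT15. Of 228 groups examined, over 112 named genes, 23 values stood apart in this way. Vehicle control 4 was high for PER1 (183 CPM), FKBP5 (275 CPM), ACKR2 (98.6 CPM), HIF3A (13.1 CPM) and MCL1 (407 CPM), and low for B3GALT2 (8.38 CPM) and CA11 (0.206 CPM). Vehicle control 3 was high for FURIN (93.6 CPM), COL4A1 (2552 CPM) and COL4A2 (1677 CPM), and low for ND3 (517 CPM), RPL22 (65.4 CPM) and RPS27A (177 CPM).

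Among the single dose libraries, the first was high for RASGEF1A (2.85 CPM), MX1 (88.8 CPM), RPL22 (394 CPM) and RPS27A (909.8 CPM), and low for MYOT (233 CPM), TAPBP (37.4 CPM), NPPB (11.6 CPM) and IDO1 (0 CPM). Single dose 3 was high for BTNL9 (41.3 CPM) and single dose 2 for CD80 (2.60 CPM).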

How the results depend on the processing

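The call of 0 genes by edgeR became 1 with Y-linked expression as a covariate and 0 to 1 when each library was left out in turn (TSPOAP1 without single dose 2, and ACSM5, named for this reason, without single dose 5). DESeq2 called 10 genes with all libraries, 3 without single dose 1 and 2 without vehicle control 4. The 836 genes at p under 0.05 became 1277 without the low-count filter, in which more genes were tested, 501 to 1117 when each library was left out, and 278 without single dose 1 and vehicle control 4 together. The 139 genes whose groups did not overlap became 175 to 361 with 1 library fewer, and 263 without those 2, as fewer libraries have to be separated. The difference in mitochondrially encoded share stayed between 2.16 and 4.05 percentage points. With the replicate number as a block, 0 genes were called and 839 were at p under 0.05. Same-numbered libraries correlated at -0.0562 to 0.138 in their deviations and not every library correlated best with its own number.

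Some small fold changes turned sign. COL1A1 was -0.15 to 0.25 when each library was left out and -0.015 without both libraries, and NR3C1 was -0.0082 without both. VEGFA was -0.27 to 0.013 when each library was left out, positive without vehicle control 5, PECAM1 was 0.021 by limma-voom, and DUSP1 was -0.75 to 0.22, positive without vehicle control 4. Among libraries with the suffix _R, COL4A1 was 0.078, RPL22 -0.033, RPS9 -0.032 and RPS27A -0.071. MX1 was -0.70 to 0.40 when each library was left out, negative without single dose 1 and, at -0.0016, without vehicle control 5. It was -0.74 without both, -0.63 in the _R libraries, -0.71 in those named M8 or M9, -0.25 with the suffix as a covariate, -0.13 with the replicate block and -0.17 by limma-voom. The causes were not tested. With 5 animals a group, differences that are small beside the spread among animals could not be detected, and at under 1 CPM counting error adds to that spread.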

Other observations

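Several further lists were described in the same way. Fibroblast markers were split 8 positive to 8 negative, mural cell markers 10 to 7 and paracrine repair growth factors 13 to 13, with medians of -0.018, 0.038 and 0.031. Calcium handling genes had 11 of 19 negative and a median of -0.049, and ion channels and connexins 12 of 20 and -0.079. Matrix glycoproteins and crosslinking enzymes had 16 of 27 negative, 2 (7.41%) of them at p under 0.05, and chemokines and NF-kB feedback genes 16 of 27, 4 (14.8%) of them at p under 0.05, beside 2.84% of all genes. Without vehicle control 4 these counts were 0 and 1, and without single dose 4 they were 6 and 2. Those fits had 3.13% and 6.6% of all genes at that level in either direction. Adrenergic, angiotensin and endothelin receptors had a median of -0.10, and 0.096 without vehicle control 4. Cell cycle genes were positive in 19 of 32 with a median of 0.16, and -0.021 to 0.37 when each library was left out in turn. Thyroid hormone handling genes were positive in 8 of 12, 2 (16.7%) of them at p under 0.05 beside 2.42% of all genes, with a median of 0.20. The median was 0.054 without single dose 1 and 0.021 without vehicle control 1, each with 1 positive gene at that level. Muscle ubiquitin ligases and autophagy genes were negative in 11 of 17, and NRF2 targets positive in 14 of 21.

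Mast cell markers present in the table summed to 31.4 to 42.4 CPM after a single dose and to 32.1 to 90.1 CPM after vehicle. KIT is itself 1 of these markers, so the sum is not separate from its level. It made up 71.4 of the 75.6 CPM in vehicle control 1, 81.5 of the 90.1 CPM in vehicle control 4 and 21.7 of the 32.4 CPM in single dose 1. Adipocyte markers summed to 89.2 to 144 CPM after a single dose and to 79.0 to 288 CPM after vehicle. Erythroid markers ran from 25.5 to 637 CPM and from 60.008 to 501 CPM.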
